A study of Mus musculus with 3 samples.

Results

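The levels of chromatin-bound RNA of 10 genes that carry the signal from Toll-like and interleukin-1 receptors to NF-kB were measured in mouse macrophages: Myd88, Tirap, Irak4, Irak1, Irak2, Irak3, Traf6, Tollip, Map3k7 and Tab2. They were chosen by symbol as a known pathway, and all 10 were found among the 55536 genes of the gene tables, of which 22028 are protein-coding. The cells were primary bone-marrow-derived macrophages from C57BL/6J mice. They had received 100 ng per ml of Lipid A, the TLR4-activating part of lipopolysaccharide, for 12 h, followed by a washout of 12 h. They were collected at minute 0 of another Lipid A exposure. The labels name no genotype change, give age and sex as not collected, and hold 1 group of 3 biological replicates with no untreated control. No value therefore measures a response to Lipid A. All libraries carry 1 donor identifier, and whether the cultures came from separate animals is not stated, so a spread between libraries may be partly technical.

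The chromatin fraction is enriched in nascent and nuclear-retained RNA, and ribosomal RNA was depleted before sequencing. When a receptor of this class is engaged, the adaptor MyD88 is recruited to its TIR domain, for some receptors through TIRAP. MyD88 then assembles with IRAK4 and IRAK1 or IRAK2 into the Myddosome. The ubiquitin ligase TRAF6 acts next, and its ubiquitin chains are bound by TAB2, which activates the kinase TAK1, encoded by Map3k7. TAK1 phosphorylates the IkB kinase complex and the MAP kinase kinases. IRAK3, also called IRAK-M, and TOLLIP are known as brakes on this route, and IRAK3 is a textbook gene of macrophage tolerance after lipopolysaccharide.

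The sequences that the transcript results turn on are shown first, each 5′ to 3′ on the strand of its gene, with coordinates on GRCm38 (mm10). A pair of in-frame cassette exons is given because annotated coding transcripts of the gene differ by including or skipping them. Exon 12 of 17 in Map3k7-201 has 81 bases, or 27 codons, at chr4:31994874-31994954, and is skipped in Map3k7-202. Exon 3 of 13 in Irak2-201 has 144 bases, or 48 codons, at chr6:113665703-113665846, and is skipped in Irak2-202. These exons were picked after their transcript values were seen.
Map3k7 exon 12: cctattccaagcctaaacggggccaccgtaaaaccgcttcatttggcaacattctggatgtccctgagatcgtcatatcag
Irak2 exon 3: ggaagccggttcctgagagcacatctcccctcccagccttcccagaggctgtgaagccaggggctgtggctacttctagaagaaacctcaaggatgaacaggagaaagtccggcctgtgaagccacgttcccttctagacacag

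In Myd88 the splice sites of introns 2 and 3 of 5 are shown because 1 annotated transcript, Myd88-203, keeps both introns. Intron 2 has 389 bases (chr9:119338187-119338575, minus strand) and intron 3 has 160 bases (chr9:119337846-119338005). Capitals mark the first and last bases of each intron.
Intron 2 donor: gaccccctagGTaagggcccagtactgtgc
Intron 2 acceptor: cccttgtcccctgtcctcAGgacaaacgcc
Intron 3 donor: ttgagaaaagGTtggttaaacatctaagag
Intron 3 acceptor: gcagtgccactctccctcAGgtgtcgccgc

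In Irak1 the coding transcripts Irak1-206 (3835 bases) and Irak1-204 (3825 bases) differ inside the gene by 3 bases at a tandem acceptor (chrX:74022662-74022664, minus strand). Irak1-206 also reaches 3 bases further at its 5′ end and 4 bases further at its 3′ end. Capitals mark these bases, which Irak1-206 keeps in its exon and Irak1-204 leaves in the intron.
Irak1 tandem acceptor: catggtctcttccagCAGtcaagcccagag

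The adaptor Myd88 (ENSMUSG00000032508, chr9:119335934-119341411, minus strand) stood at 17.87, 20.14 and 18.61 TPM in replicates 1, 2 and 3. TPM is transcript abundance per length, scaled to a fixed sum per library. The mean was 18.9 ± 1.16 TPM (SD, n = 3), at percentile 82.1 of protein-coding genes. Tirap (ENSMUSG00000032041, chr9:35184551-35200291, minus strand), the sorting adaptor that brings MyD88 to TLR2 and TLR4 at the membrane, was measured at 3.78, 4.56 and 5.08 TPM, a mean of 4.47 ± 0.65. In each library Tirap was the lowest of the 10 genes in both quantifications, and its values did not overlap those of Myd88. It had 144.6, 221.6 and 276.2 expected counts, the fewest of the 10 genes in the alignment-based table, while its read-based estimated counts were 757.8, 973.8 and 1118, more on average than those of Myd88.

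Among the IRAK family, Irak2 was the highest in every library. Irak2 (ENSMUSG00000060477, chr6:113638467-113695026, plus strand), the kinase-like member that sustains late TLR signalling, was at 63.29, 63.3 and 57.6 TPM, a mean of 61.4 ± 3.29. Irak1 (ENSMUSG00000031392, chrX:74013914-74023918, minus strand), the kinase that is phosphorylated and degraded early after receptor engagement, was at 45.05, 52.9 and 46.35 TPM, a mean of 48.1 ± 4.21. The ranges of Irak2 and Irak1 did not overlap.

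Irak3 (ENSMUSG00000020227, chr10:120141648-120202130, minus strand), the inhibitory member, was at 22.22, 23.54 and 24.8 TPM, a mean of 23.5 ± 1.29. Irak4 (ENSMUSG00000059883, chr15:94543643-94581815, plus strand), the kinase at the head of the Myddosome, was at 14.7, 18.81 and 15.12 TPM, a mean of 16.2 ± 2.26. At the level of whole genes, Irak4 was thus the lowest IRAK gene in all 3 libraries, and its range lay below that of Irak3. Over coding transcripts alone, given below, Irak3 was the lowest IRAK gene on average. The 4 IRAK genes summed to 145.3, 158.5 and 143.9 TPM in replicates 1, 2 and 3.

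The ubiquitin ligase gene Traf6 (ENSMUSG00000027164, chr2:101678429-101701669, plus strand) was at 12.54, 14.74 and 13.26 TPM, a mean of 13.5 ± 1.12. Tollip (ENSMUSG00000025139, chr7:141874813-141918507, minus strand), which encodes a ubiquitin-binding adaptor that restrains IRAK signalling, was at 19.98, 22.48 and 22.47 TPM, a mean of 21.6 ± 1.44. Traf6 was below Tollip in each library, with ranges that did not overlap.

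In the TAK1 complex, Tab2 (ENSMUSG00000015755, chr10:7905653-7956230, minus strand), the ubiquitin-binding subunit, was at 76.25, 75.72 and 68.87 TPM, a mean of 73.6 ± 4.12. This was the highest value of the 10 genes and lay at percentile 96.0 of protein-coding genes. The kinase subunit Map3k7 (ENSMUSG00000028284, chr4:31964097-32023467, plus strand) was at 29.2, 32.67 and 34.67 TPM, a mean of 32.2 ± 2.77. Tab2 exceeded Map3k7 in every library.

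The order by mean level was Tab2, Irak2, Irak1, Map3k7, Irak3, Tollip, Myd88, Irak4, Traf6 and Tirap, and each gene exceeded the next one within every library. The ranges over libraries of the neighbours Irak3 and Tollip, Tollip and Myd88, Myd88 and Irak4, and Irak4 and Traf6 overlapped. The other neighbours were separate. The levels spread from 4.47 to 73.6 TPM with a median of 22.6, beside 13.2 TPM over the 10150 protein-coding genes that reached 1 TPM in each of the 3 libraries. All 10 genes met that threshold, which 46.1% of the 22028 protein-coding genes did. A sign-flip test over 3 libraries cannot give a p below 0.25, so no test of these differences in level is reported.

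**Figure D1:**
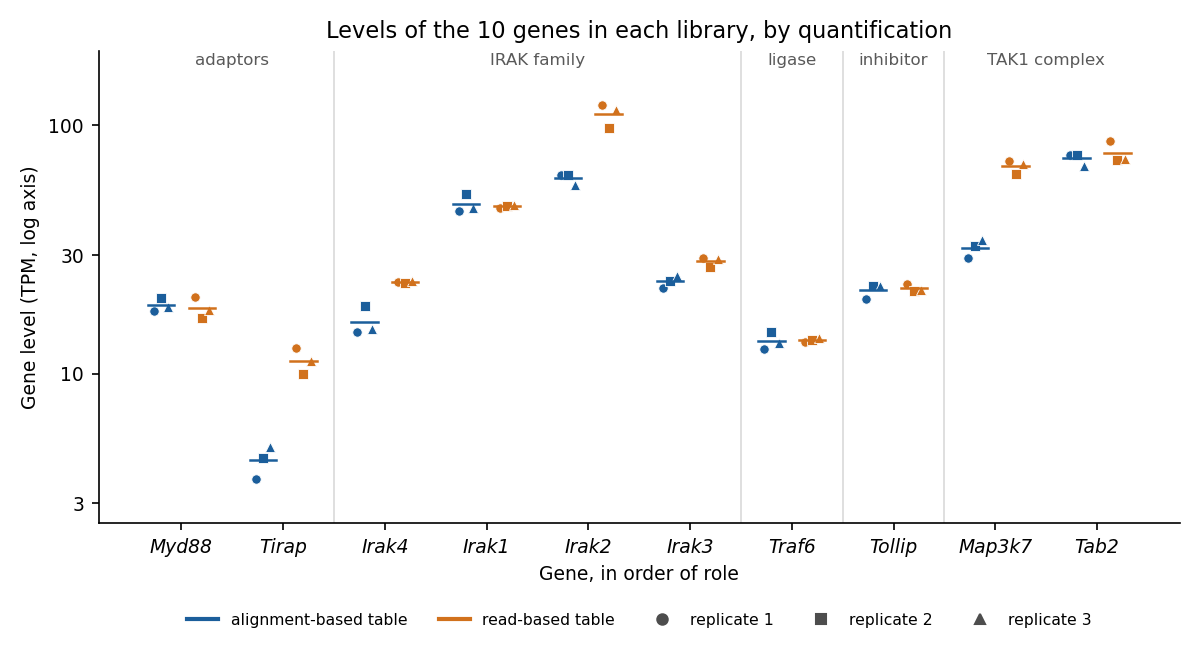
Level of each gene in TPM (log axis) by library, with genes in order of role, for the alignment-based table (blue) and the read-based table (orange). Symbols are single libraries and bars are means over 3 libraries. Tab2 and Irak2 lie highest and Tirap lowest, and the read-based values of Tirap, the IRAK genes other than Irak1, and Map3k7 lie above all of their alignment-based ones.

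The order at the top depended on the quantification. The authors deposited 2 quantifications of each library, one from reads aligned to the transcriptome (used above) and one from reads matched to an index. In the read-based table Irak2 was at 120.5, 98.03 and 115.2 TPM, above Tab2 at 86.8, 72.44 and 73.07 TPM in each library. Map3k7 took the third place with 72.14, 63.46 and 70.0 TPM, above Irak1 at 46.49, 47.48 and 47.6 TPM. Tirap, at 12.72, 9.948 and 11.23 TPM, remained the lowest, and its values came closer to those of Traf6 at 13.45, 13.62 and 13.93 TPM.

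Part of this order also depended on which annotated transcripts were counted. Short transcripts, under 1000 bases and many of them annotated as non-coding, held 59.1% of the TPM of Irak2 but 17.0% of its expected counts. For Map3k7 these shares were 56.8% and 10.2%, for Irak1 55.6% and 13.3%, and for Tab2 34.6% and 6.57%. Over protein-coding transcripts alone, Tab2 stood far above the others at 46.78, 50.61 and 46.76 TPM in replicates 1, 2 and 3. Irak1 followed at 19.6 ± 0.90 TPM and Irak2 at 18.2 ± 1.12 TPM, with overlapping ranges. Irak3 took the eighth place with 9.31 ± 1.31 TPM, below Irak4 at 11.2 ± 1.27 TPM. In replicate 1, however, Irak3 was the higher, at 10.8 against 10.06 TPM. Traf6 at 5.84 ± 0.51 TPM and Tirap at 4.48 ± 0.65 TPM were the lowest of the 10 genes. In the read-based table the coding transcripts of Tab2, Irak1 and Irak2 kept their order, at 44.6, 17.8 and 15.5 TPM on average. Tirap, at 11.3 TPM, stood there at the sixth place and Traf6, at 5.28 TPM, was the lowest. Irak4 was above Irak3 in every library of that table, at 13.77 against 8.375 TPM on average.

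The 2 quantifications were compared within each library after both were rescaled to sum to the same total over the protein-coding and long non-coding genes of the nuclear genome. The read-based value of Tirap was higher by 1.14, 0.89 and 0.72 in log2(TPM + 0.1) in replicates 1, 2 and 3. For Map3k7 these differences were 0.70, 0.73 and 0.60, and for Irak2 they were 0.32, 0.40 and 0.58. Irak4 differed by 0.06, 0.08 and 0.22. The other 6 genes were lower in the read-based table in every library, Myd88 by the most on average with a log2 ratio of -0.45 ± 0.04 (SD, n = 3). The median ratio of the 10 genes was -0.25, beside -0.01 over protein-coding genes.

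No gene of the 10 was at least 2-fold higher in the read-based table in every library, which 5.5% of 10133 protein-coding genes were. None was at least 2-fold higher in the alignment-based table in every library, which 0.306% were. Tirap came nearest, past 2-fold in replicate 1 only. With the TPM values as deposited, Tirap alone was past 2-fold in every library.

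**Figure D2:**
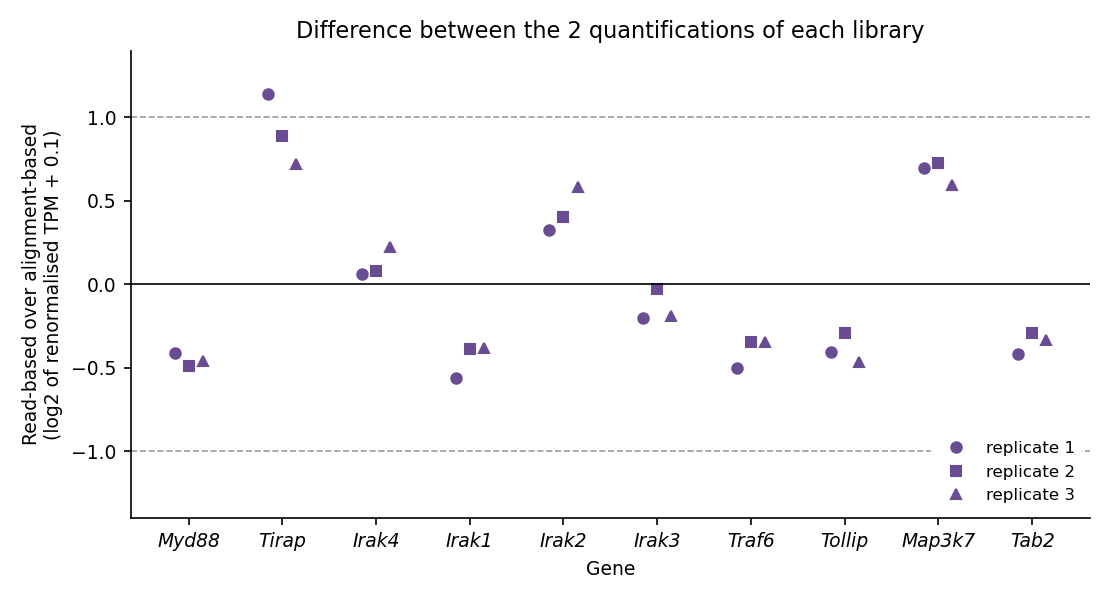
Log2 ratio of read-based over alignment-based renormalised TPM, with 0.1 added to each, for the 10 genes in each library (symbols). Dashed lines mark 2-fold. Tirap and Map3k7 lie highest, and 6 genes lie below 0 in all 3 libraries.

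The spread between libraries was summarised by the coefficient of variation. The coefficient of variation of TPM over 3 libraries had a median of 7.48% over the 10 genes and ran from 5.36% for Irak2 to 14.6% for Tirap. Its median over 8308 protein-coding genes with a mean of at least 100 expected counts was 14.9%. All 10 genes lay below that median, Tirap and Irak4 (13.9%) only just. The 8308 genes were not matched in level to the 10 genes, so this does not compare them with genes of like level. After renormalisation the medians were 7.55% over the 10 genes and 13.8% over the protein-coding genes, and in the read-based TPM 5.48% and 11.8%, with Tirap, at 12.3%, above the latter.

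Which of the 10 genes were the most even depended on the scale. Irak2 and Tab2 had low coefficients in TPM as deposited, 5.36% and 5.59%, but the highest of the 10 after renormalisation, 12.9% and 13.4%, and 10.6% and 10.5% in the read-based table. Irak4 went the other way, from 13.9% to 5.39% and 0.591%. Traf6, at 8.30%, became the most even after renormalisation with 3.55%, and had 1.77% in the read-based table. Tirap was the least even gene in both tables as deposited, and more even than Irak2 and Tab2 after renormalisation of the alignment-based one.

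Variability beyond the trend of all genes was tested on expected counts with edgeR's quasi-likelihood dispersion against the fitted trend. None of the 10 genes passed, and the smallest Benjamini-Hochberg adjusted p among them was 0.992. Over all 14839 genes tested, 0.0% passed, and 5.03% had an unadjusted p under 0.05, none of the 10 genes among them. With 3 libraries this edgeR test has little power. Tlr7, for example, had a dispersion 4.664 times the trend and an unadjusted p of 0.0775. As no gene at all passed, the outcome does not set the 10 genes apart. DESeq2 marked 1.04% of genes as dispersion outliers, again none of the 10. The number of all genes called by edgeR moved with the libraries used, to 8 without replicate 1 and 73 without replicate 3, and none of the 10 genes was called in either fit.

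**Figure D3:**
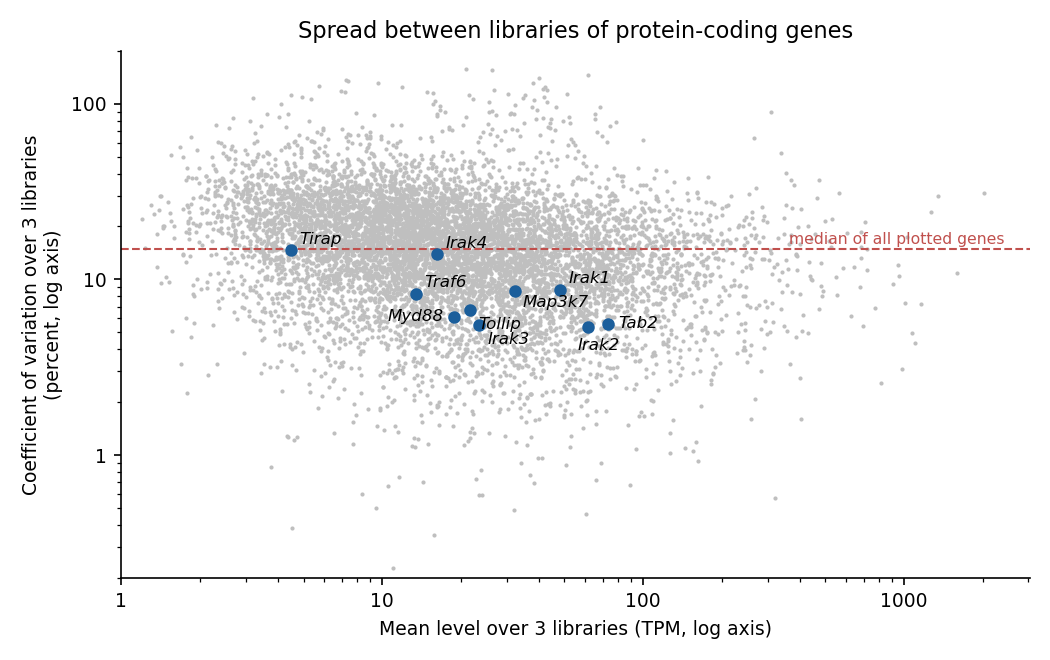
Coefficient of variation over 3 libraries (percent, log axis) against mean TPM (log axis) for 8308 protein-coding genes (grey points) and the 10 genes (blue, labelled). The dashed line is the median of all plotted genes, 14.9%, and all 10 genes lie below it.

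Ratios between libraries were taken on CPM with TMM scaling and 0.1 CPM added. Replicate 1 over replicate 2 gave a median log2 ratio of 0.07 over the 10 genes, from -0.17 for Tirap to 0.29 for Irak3. Replicate 1 over replicate 3 gave 0.13, from -0.19 for Tirap to 0.21 for Irak2. Replicate 2 over replicate 3 gave -0.02, from -0.13 for Irak3 to 0.25 for Irak4. In TPM the first ratio was -0.17 and the second -0.07, while the median of protein-coding genes was itself -0.23 and -0.20 on that scale. Relative to the median of protein-coding genes, the median of the 10 genes was thus slightly higher in replicate 1 in both pairs on either scale. Single genes went either way, and Tirap lay below the median of protein-coding genes in both pairs on either scale. The SD of these log2 ratios over the 10 genes was 0.149 and 0.126 in CPM, and 0.115 and 0.168 in TPM.

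The transcript tables divide each gene among its annotated transcripts. In Myd88 the coding transcript Myd88-201 held 53.27, 55.06 and 56.77% of the TPM in replicates 1, 2 and 3. The remainder, 46.73, 44.94 and 43.23%, was assigned to the retained-intron transcript Myd88-203, which keeps the pair of introns whose splice sites are given above. Of the expected counts Myd88-203 held 51.3 ± 1.71%, and of the read-based TPM 43.6%. The nearly equal split was therefore seen in each library and in both quantifications, which come from the same libraries. Myd88-203 is the only annotated retained-intron transcript of Myd88, so reads of unspliced nascent RNA in these introns may be assigned to it. Nascent RNA and a lasting retained-intron transcript cannot be told apart from these shares.

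Retained-intron transcripts are annotated for 7 of the 10 genes. Their share of TPM was highest in Irak1, at 52.21, 62.36 and 54.24%. It was 47.8 ± 4.15% in Irak2, 45.0 ± 1.75% in Myd88, 42.9 ± 3.53% in Tollip, 38.4 ± 6.78% in Irak3, 34.6 ± 3.52% in Tab2 and 30.9 ± 2.74% in Irak4. The median over these 7 genes was 42.9%, beside 47.7% over 6403 protein-coding genes at 1 TPM with such a transcript. In expected counts the medians were 21.4% and 30.8%. The order of the genes also differed there. Myd88 was the highest at 51.3%, Irak1 followed at 25.9%, and Irak4 at 12.1% and Tab2 at 6.57% were the lowest. The median share in these genes was thus not above that of protein-coding genes at large.

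Which introns are kept could be read from the annotation for some of these transcripts. In Irak1, with 13 introns in Irak1-206, Irak1-218 keeps introns 3 and 4 and held 17.6 ± 0.77% of the gene's TPM. Irak1-215 keeps intron 5 and held 18.6 ± 2.20%. In Tab2, Tab2-202 keeps intron 4 of 6 (chr10:7911183-7911387) and held 11.8 ± 0.88%. Irak1-218, Irak1-215 and Tab2-202, of 576, 644 and 618 bases, held 3.443, 4.404 and 1.927% of their gene's expected counts on average. No whole intron of the leading coding transcript is kept in Irak4-203, Irak3-204, Tollip-205, Tab2-203 or the 3 retained-intron transcripts of Irak2.

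Traf6 and Map3k7 have no retained-intron transcript in this annotation. Their non-coding share came from processed transcripts, which lack an open reading frame, with 56.7 ± 3.74% of the TPM in Traf6 and 56.8 ± 3.84% in Map3k7. In expected counts these shares were 20.5 ± 2.44% and 10.2 ± 1.23%. Tirap was assigned to coding transcripts alone, since its 7 annotated transcripts are all coding.

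**Figure D4:**
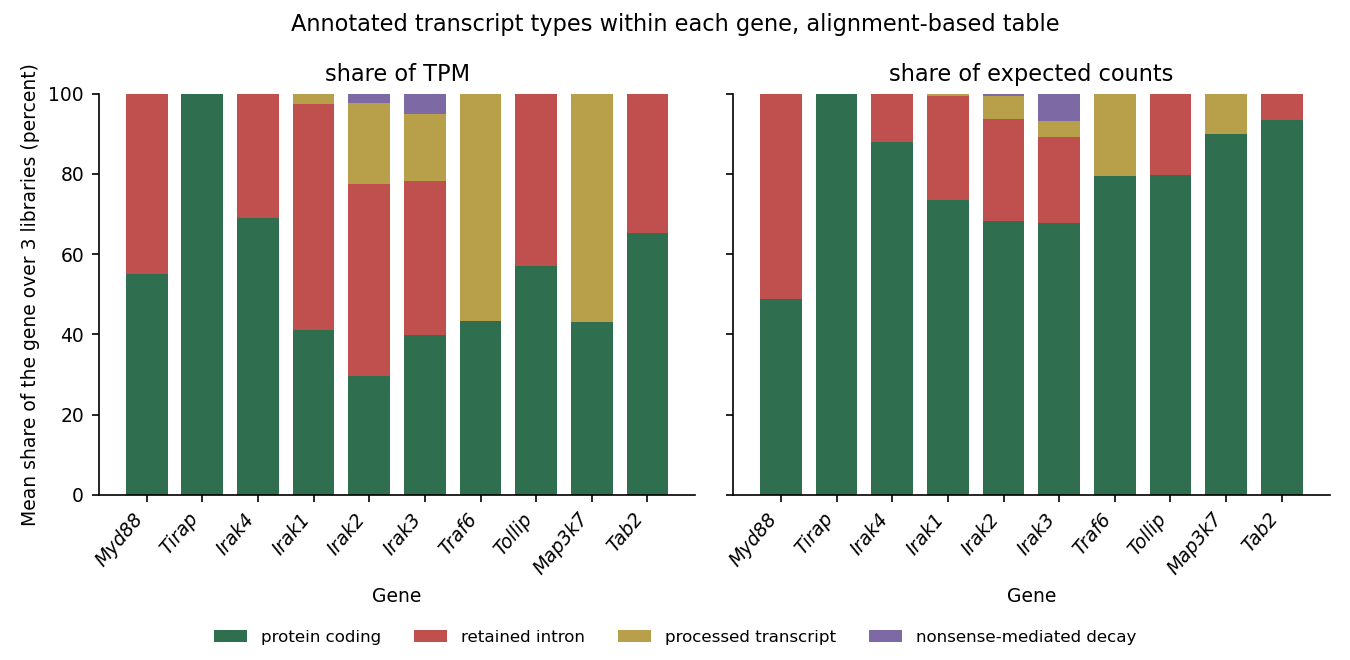
Mean share over 3 libraries of each annotated transcript type within a gene, as a share of TPM (left) and of expected counts (right). Coding transcripts hold from 29.7% of TPM in Irak2 to all of it in Tirap, and a larger share of expected counts in 8 of the genes; in Myd88 it is smaller.

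Among coding transcripts, Map3k7 exon 12 was included in 39.06, 45.39 and 37.22% of the coding TPM in replicates 1, 2 and 3, a mean of 40.6 ± 4.29% (SD, n = 3). Inclusion compares 2 coding transcripts with the exon and 2 without it. Expected counts gave 41.0 ± 4.29%, and the values of the read-based table were 50.39, 54.54 and 53.73%. The shorter form was therefore the larger one in each alignment-based library, and slightly the smaller one in each read-based library. At 50.4% to 54.5% against 37.2% to 45.4%, the ranges of the quantifications did not overlap.

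Irak2 is known to give rise to splice variants in the mouse. Its exon 3 was included in 66.41, 89.17 and 74.12% of the coding TPM, a mean of 76.6 ± 11.6% (SD, n = 3). In the read-based table the values were 86.11, 90.2 and 85.52%. The form with the exon was thus the larger one in each of the 3 libraries by both quantifications, which come from the same libraries. The low values of replicates 1 and 3 in the alignment-based table were not seen in the read-based one.

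**Figure D5:**
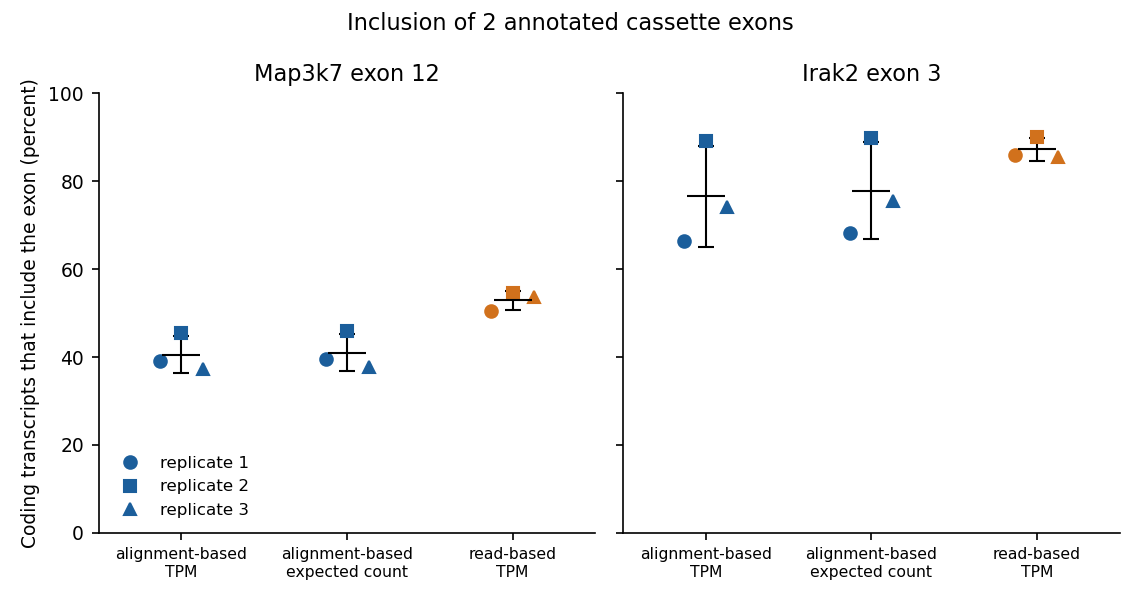
Inclusion of Map3k7 exon 12 (left) and Irak2 exon 3 (right), in percent of the gene's coding transcripts, by library (symbols), with mean and SD of 3 libraries, for 3 measures. Map3k7 inclusion is below 46% in the alignment-based table and above 50% in the read-based one, and Irak2 inclusion is above 66% throughout.

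The Irak1 transcripts that differ at the tandem acceptor, and by a few bases at their ends, had no stable order. Irak1-206, with the 3 extra bases at the acceptor, held 24.79, 12.29 and 17.68% of the gene's TPM in replicates 1, 2 and 3. Irak1-204, without them, held 9.279, 15.83 and 19.04%. The longer form was the larger in replicate 1 and the smaller in replicates 2 and 3. In the read-based table it was the larger in replicates 1 and 2 and the smaller in replicate 3.

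Irak4 has coding transcripts of 2831 bases (Irak4-201) and 3437 bases (Irak4-202). Irak4-202 held 44.12, 46.62 and 46.93% of the TPM and Irak4-201 held 24.27, 20.15 and 25.18%. In the read-based table the order was the opposite in every library, with 25.07, 27.13 and 24.41% for Irak4-202 and 35.79, 29.58 and 34.56% for Irak4-201. Their order can therefore not be given from these tables.

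In Tirap the quantifications also differed. Tirap-201 held 59.1 ± 4.70% of the TPM and Tirap-203 held 32.0 ± 6.00%, but Tirap-203 held 3.12% in the read-based table and Tirap-201 81.7%. For Tab2, Tab2-204 was the leading coding transcript in both, with 40.0 ± 4.36% and 26.0%. Tollip-201 was the leading coding transcript of Tollip with 50.6 ± 3.11%, and Traf6-201, the only coding transcript of Traf6, held 43.3 ± 3.74%. In Irak3, Irak3-201 held 45.93, 35.3 and 35.6% of the TPM, and its read-based mean was 19.0%.

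In the alignment-based table a non-coding transcript had the largest mean share of TPM in 3 of the 10 genes, Irak2, Map3k7 and Irak1. In the read-based table this was so in 8 of 10, all but Myd88 and Tirap. In replicates 1, 2 and 3 taken singly, the counts were 1, 3 and 2 in the alignment-based table. They were 7, 8 and 6 in the read-based one. In Irak2 the leading transcript in the alignment-based mean was the retained-intron transcript Irak2-208, of 631 bases. It held 25.04, 20.69 and 26.79% of the TPM but 7.49% of the expected counts. The coding Irak2-201, of 3196 bases, held 22.5 ± 2.67% of the TPM and 52.8% of the counts. In replicate 2 Irak2-201 was ahead of Irak2-208, with 23.39% of the TPM. In Map3k7 it was the processed transcript Map3k7-205, of 865 bases, with 20.25, 35.78 and 25.24%, beside 25.7 ± 3.35% for Map3k7-202 and 17.5 ± 1.90% for Map3k7-201. In replicates 1 and 3 Map3k7-202 was the larger, so the lead of Map3k7-205 in the mean rests on replicate 2. In Irak1 it was Irak1-215, of 644 bases, whose 18.6% was close to the 18.2 ± 6.27% of Irak1-206, and it led in replicate 2 alone. In Irak3 the coding Irak3-201 led in the mean through replicate 1, and Irak3-204, with 36.02 and 46.05%, was ahead of it in replicates 2 and 3. In expected counts a coding transcript led on average in every gene but Myd88.

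Other transcripts at 10% or more of their gene's TPM were non-coding with 1 exception. Irak2-206 held 17.24, 15.42 and 12.33% in replicates 1, 2 and 3, Irak2-207 held 12.4% on average and Irak2-204 held 11.2%. Map3k7-208 held 17.7% on average, and Map3k7-207 held 10.21, 8.846 and 11.05% in the 3 libraries. Traf6-202 and Traf6-203 held 30.7 and 26.0%, Tab2-203 held 22.8% and Irak3-203 held 16.8%. The exception was the coding Tab2-201, at 17.3 ± 0.88%.

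Some of the genes share exonic bases with a neighbour on the opposite strand. The sources used here do not say whether the counting used strand, so reads in these stretches cannot be told apart. Myd88 shares 290 of 2576 exonic bases with Acaa1a, a peroxisomal thiolase gene at 69.9 ± 6.70 TPM. Irak4 shares 395 of 5021 bases with Twf1, which encodes an actin-binding protein, at 24.1 ± 8.41 TPM. Irak3 shares 192 of 3676 bases with Tmbim4 at 55.5 ± 4.72 TPM, and Irak2 shares 196 of 4412 with the gene model Gm43963 at 10.9 ± 1.25 TPM. Tirap shares 446 of 4929 bases with the antisense gene Gm39318, at 0.60 ± 0.33 TPM, and 39 with Srpr. The microRNA genes Mir5132 and Mir718 share 71 and 70 exonic bases with Irak1 on the same strand, and both had 0 counts in all libraries.

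Promoter windows, 250 bases before to 50 after a start site, were found for all 10 genes, 14 windows in all, in the RefSeq annotation of GRCm38.p6. A kappaB motif, GGGNNTTTCC on either strand, was present in 1 window, that of Map3k7, and in 1.63% of 32851 promoters. It lies 92 to 83 bases before the start on the minus strand (chr4:31964015-31964024). An ISRE motif, GAAANNGAAA, was present in the Myd88 window alone, and in 3.44% of promoters. It lies 40 to 31 bases before the RefSeq start used (chr9:119340049-119340058). This is inside the GENCODE span of Myd88 given above, not before its 5′ end. A GAS motif, TTCNNNGAA, was present in the same window, 46 to 38 bases before that start, overlapping the ISRE match, and in 8.3% of promoters. The motifs were chosen with the levels known, and a match is a description of letters only. The matches are shown in capitals with 10 bases on each side, on the strand of the gene.
Map3k7 kappaB match: ccccgggtcaGGAAATTCCCcgctcgggtc
Myd88 ISRE match: gagcttctcgGAAAGCGAAAgaaggagggg

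The rest of the pathway was described from a list of 47 other genes. Of these, 40 reached 1 TPM in each library and 4 were below it in each, beside the 46.1% of protein-coding genes past the threshold. Their median was 18.8 TPM, close to the 22.6 TPM of the 10 genes. The edgeR test of variability covered 41 of the 47, and none passed (smallest adjusted p 0.992, and none with an unadjusted p under 0.05). Il1r1, Il1rl1, Il18r1, Il18rap, Sarm1 and Sigirr were left out by the filter on low counts. Of these, Il1r1 had 9, 8 and 53 expected counts in replicates 1, 2 and 3, and Il1rl1 had 1, 2 and 58. Genes counted mainly in replicate 3 were therefore not covered by the test.

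Upstream, 8 of 12 receptor genes reached 1 TPM in every library. Tlr1, which pairs with TLR2, was the highest at 117.1 ± 6.25 TPM and close to Tlr7 in the read-based table (130.6 and 130.1 TPM on average), and Il18r1, an interleukin-18 receptor chain, the lowest at 0.0, 0.05 and 0.0 TPM, with 0, 1 and 0 expected counts. Its read-based mean was 5.04 TPM, so its rank depends on the table. Tlr4, the Lipid A receptor, named outside the rule for its role, was at 26.02, 27.36 and 24.3 TPM. Of 4 other adaptors with a TIR domain, Pik3ap1, also called BCAP, was the highest at 267.5 ± 45.8 TPM and Sarm1 the lowest at 0.0, 0.03 and 0.08 TPM.

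Beside TRAF6 and TAK1, 8 of 9 partner genes reached 1 TPM in every library. Peli1, a Pellino ubiquitin ligase that acts on IRAK1, was the highest at 80.5 ± 7.99 TPM and its relative Peli3 the lowest at 0.93 ± 0.38 TPM. All 11 downstream kinase genes passed the threshold, from Map3k8, encoding the ERK-pathway kinase TPL2, at 119.3 ± 20.2 TPM to Map2k6, a p38 activator, at 1.34 ± 0.19 TPM. The IkB kinase gene Chuk was above Map3k8 in replicate 3, at 105.8 against 96.73 TPM, and in the read-based mean, at 139.1 against 118.5 TPM. Of 7 inhibitors, 6 passed. Trafd1, a feedback inhibitor, was the highest at 581.9 ± 67.2 TPM and Sigirr, a decoy-like receptor, the lowest at 0.70 ± 0.30 TPM. The 4 transcription factor genes all passed, from Irf7 at 362.3 ± 57.6 TPM to Rela, an NF-kB subunit, at 13.9 ± 1.87 TPM.

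The expected counts of replicates 1, 2 and 3 summed to 11958978, 17283529 and 19475027, from 1000, 250 and 500 ng of starting RNA. All 7 macrophage markers reached 1 TPM in each library, among them Csf1r at 126.8 ± 1.30 TPM. Replicate 3 stood apart in fibroblast and stromal markers, whose 9 genes summed to 0.04, 1.71 and 587.8 TPM in replicates 1, 2 and 3, and Dcn, Pdgfra and Thy1 were at 0 in the first pair. Neutrophil, T cell, B cell and mast cell markers summed to at most 1.61 TPM in any library, endothelial markers to 11.7, 4.77 and 6.68 TPM, mostly Kdr, and dendritic cell markers to 7.22, 10.6 and 6.95 TPM. The part of these cells in the levels of the 10 genes was not tested. In bulk RNA, more cells of a type and more RNA per cell cannot be told apart. Without replicate 3 the median of the 10 genes was 22.1 TPM in place of 22.6, and all 10 still reached 1 TPM in each of the others.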

How the data were processed

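Per the README files deposited with the data, gene and alignment-based transcript tables come from reads aligned to the transcriptome (mm10, GENCODE M21), and read-based tables from reads matched to an index. The sources used here name no aligner, version or strand setting. The authors deposited expected counts, which are estimated and not normalized. Deposited TPM is scaled by the authors over all rows, short RNAs included. Rows naming no gene, with 0.24% to 1.31% of counts, were left out of library sizes and tests.

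Expected counts were rounded and fitted with edgeR 4.0.16 in R 4.3.3 (filterByExpr, TMM scaling, intercept only); DESeq2 1.42.0 was an alternative. The fit was also run on simulated data in which all genes had the same dispersion. The real data differ in this, so that run does not show the power of the test here. Other steps used Python 3.11.15, pandas 2.3.3, numpy 2.4.6 and matplotlib 3.10.9. The libraries were compared as possible duplicates, and each pair differed by far more than sampling noise. For the ratio of quantifications, TPM was renormalised over the protein-coding and long non-coding genes of the nuclear genome.

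Named are the 10 genes, each gene's leading transcript and any at 10% or more of its TPM, and the highest and lowest gene of each role in the pathway list. The genes and lists were chosen with earlier results of these data known; the cassette exons, the tandem acceptor, the overlaps and the motifs were chosen after values were seen. Alternatives were the read-based table, renormalised TPM, other thresholds, filters, scalings and constants, and leaving out each library. Promoter sequences are from RefSeq (GRCm38.p6); exon and splice-site sequences are from GENCODE M21 on GRCm38.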

Additional observations from a re-analysis of the deposited data

How the results depend on the processing

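The median level of the 10 genes, 22.6 TPM, was 25.9 TPM in the read-based table and 52.6 TPM after renormalisation, and 22.1 to 23.3 TPM with 1 library left out. The count at 1 TPM was 10 under each alternative run except the stricter 5 TPM, where it was 9 and Tirap dropped out. The count of all genes more variable than the trend was 0 with edgeR, and became 49 with no filter on low counts, 155 with DESeq2's outlier flag and 0 to 73 with 1 library left out; none of the 10 genes was called in any of these. In TPM in place of CPM the median log2 ratios between libraries were -0.17, -0.069 and 0.125 for replicates 1 over 2, 1 over 3 and 2 over 3, where the median of protein-coding genes was -0.23, -0.20 and 0.03, so their signs say nothing of these 10 genes alone. The median coefficient of variation of the 10 genes, 7.48%, was 4.06% in renormalised read-based TPM, beside 11.5% over protein-coding genes. Inclusion of Map3k7 exon 12 moved from 40.6% to 52.9% in the read-based table, and was 38.1% to 42.2% with 1 library left out. With TPM as deposited, 1 of the 10 genes, Tirap, was 2-fold apart between the quantifications in every library, in place of 0. Of the values of single genes and transcripts, 74 of 93 moved by more than 1 SD under another quantification, scale or share. Leaving out 1 of 3 libraries cannot move a mean that far, so those values are no check of stability. Part of the 74 moves follows from the change of scale alone. Renormalisation raised the levels of all 10 genes, for Myd88 from 18.87 to 43.88 TPM. Shares of expected counts also weigh longer transcripts more than shares of TPM do. Transcript shares depend on how reads shared by transcripts are divided, which at these depths (144.6 to 2875 expected counts a gene and library) leaves rare transcripts imprecise. No paired analysis was possible because the libraries form 1 group.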
